A study of Mus musculus with 8 samples.

Results

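The cells described here were low-Reg4 goblet barcodes of the mouse large intestine, single-cell droplets that held mucus gene transcripts and little Reg4 RNA. They were chosen from 1 sorted tissue library by 4 conditions on unique molecular identifiers (UMIs), which count captured transcripts. A barcode needed at least 500 detected genes, at most 20% of UMIs from mitochondrial genes, at least 10 UMIs per 10000 from Muc2, Fcgbp and Clca1 summed (the goblet score), and Reg4 below 10 per 10000. These conditions found 1136 barcodes, of 6188 kept and 8646 deposited in that library and 28486 barcodes and spots in the whole series. They were set against 4254 other kept barcodes of the same library with at least 1 Epcam UMI, Epcam being a surface protein of gut epithelium. The goblet score, Reg4, mitochondrial share and Epcam are therefore descriptions of the choice and not findings.

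The series asked how lymphatic vessels and intestinal stem cells act on each other, with sorted small and large intestinal tissue, organoids and spatial sections. The tissue came from C57BL/6 mice and from Lgr5-eGFP-ires-CreERT2 mice on a C57BL/6 background, the latter carrying a green fluorescent protein reporter and an inducible Cre recombinase in the stem cell gene Lgr5. Live cells were sorted, with LGR5+ stem cells and CD31+ PDPN+ LYVE1+ lymphatic endothelial cells enriched, so shares of barcodes describe this sort and not the tissue. The labels name no treatment of these mice, and their number, age and the colon segment are not given in the sources used here. Each tissue had 1 sorted library, and the spatial data had 2 Visium sections per tissue, which were technical duplicates with titles that begin with WT. There was no replicate of the cells, so no test was run, and the 95% intervals below cover counting error only.

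Goblet cells are secretory cells of the gut epithelium that make the mucus gel. They fold and cross-link the mucin MUC2 in the endoplasmic reticulum, add sugar chains in the Golgi, and release it from granules. The transcription factor ATOH1 commits crypt cells to secretory fates, Notch signalling opposes it, and SPDEF promotes goblet cell maturation. In the mouse colon, REG4 marks deep crypt secretory cells that sit among stem cells, while goblet cells higher in the crypt and at the surface carry less of it.

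The low-Reg4 barcodes held 712 to 139668 UMIs, with a median of 24632 UMIs and 4569.5 genes. They fell into 763 barcodes of at least 5000 UMIs, which held 97.6% of all their UMIs, and 373 shallower ones with a median of 1374 UMIs. The median goblet score was 141 per 10000 in the deep barcodes, on 461 UMIs of the 3 genes. It was 26.4 per 10000 in the shallow barcodes, on 4 UMIs. Depth and score therefore went together at the low end, and the values below are sums of UMIs, of which the shallow barcodes held 2.44%. Of the 96 barcodes without an Epcam UMI, 95 were shallow.

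**Figure D1:**
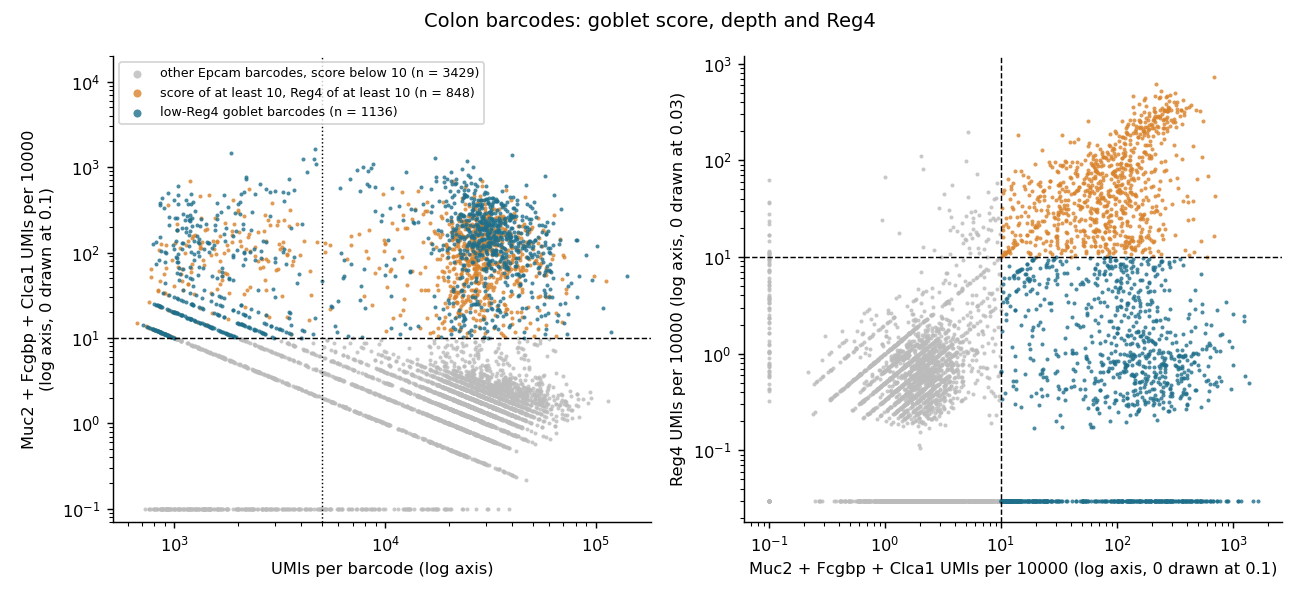
Each point is a kept colon barcode. Left, goblet score (Muc2, Fcgbp and Clca1 UMIs per 10000) against UMIs per barcode; right, Reg4 per 10000 against goblet score, all on log axes with 0 drawn at the lower edge. Dashed lines mark 10 per 10000 and the dotted line 5000 UMIs. The 1136 low-Reg4 barcodes (blue) and the 848 barcodes with high Reg4 (orange) form 2 dense fields above the score line, and the shallow low-Reg4 barcodes lie on stripes of 1, 2 or more UMIs.

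Among the shallow barcodes, 153 scored 10 to 20 per 10000. Their summed level was 2035 UMIs per 1000000 UMIs (CPM) of Agr2 and 49.5 CPM of Atoh1, beside 10073 and 215 CPM in the 63 deep barcodes of the same score. In other Epcam barcodes Atoh1 was at 80.5 CPM and Tff3 at 933 CPM, beside 346 CPM of Tff3 in the 153. Agr2 was also lower in the 153 than in other Epcam barcodes, while Spdef, at 49.5 CPM, was not. Agr2, Atoh1 and Tff3 thus did not set these 153 apart as goblet barcodes. Just outside the score limit, 115 barcodes scored 8 to 10, with a median of 2 UMIs of the 3 genes and a median Agr2 of 9.14 per 10000. Just inside it, 72 barcodes scored 10 to 12, also with a median of 2 UMIs and with 11.5 per 10000 of Agr2. At the Reg4 limit, 53 barcodes at 8 to 10 per 10000 had a median Agr2 of 197 per 10000, and 51 at 10 to 12 had 130. The score limit thus passed through shallow barcodes of few UMIs, and the Reg4 limit through barcodes rich in secretory RNA on both sides.

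RNA of goblet genes was also present in barcodes that should lack it. Of 114 barcodes with at least 2 UMIs of the B cell genes Cd79a and Ms4a1 and none of Epcam, 7 met the goblet rule (6.14%, exact binomial interval 2.50% to 12.2%), at a median depth of 2850 UMIs. Those 7 were left out of the B lineage group below, which leaves 107 with a score under 10, so shares of the rule genes in it were fixed by the choice. Muc2 was still seen in 64.5% of them. After every barcode was thinned to 2000 UMIs, Agr2 was seen in 97.9% of 869 low-Reg4 barcodes and 55.7% of 97 B lineage barcodes, 267 and 10 shallower ones being left out. Without thinning, at median depths of 24632 and 2956 UMIs, the Agr2 shares were 96.6% and 81.3%. The regulators differed more: thinned Atoh1 was in 36.8% (33.6% to 40.1%) and 1.03% (0.0261% to 5.61%), and Spdef in 36.9% and 2.06% (unthinned 69.4% and 3.74%, and 69.7% and 2.80%). Thinned Zg16 was in 42.5% (39.1% to 45.8%) and 24.7% (16.5% to 34.5%), so a single UMI of Agr2 or Zg16 did not set a goblet barcode apart.

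The label of goblet cells was set against its 4 markers, the gel-forming mucin Muc2, the mucus protein Fcgbp, the metalloprotease Clca1 and the bacteria-binding lectin Zg16. The first 3 chose the barcodes and cannot test the label. Muc2 reached 10 per 10000 in 1055 of the 1136 barcodes (92.9%), at a summed 13355 CPM. Fcgbp reached it in 287 (25.3%), Clca1 in 229 (20.2%) and Zg16, which the choice did not use, in 293 (25.8%). In 763 barcodes (67.2%) Muc2 was the 1 gene of the 3 rule genes at that level, and 156 (13.7%) had all 4 markers there. Zg16 was thus the 1 marker that the rule did not count, though it was given together with the rule genes. It was at that level in a minority. Among themselves Reg4 was at 0 in 407 and had a median of 0.522 per 10000.

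Promoter sequences are shown for the genes on which the results turn, to place them in the genome. They are the 250 bases before the RefSeq start site, all on the + strand of GRCm38.p6, and 6 of 11 genes looked up had an entry. Muc2 (chr7:141690090-141690339) and Fcgbp (chr7:28070986-28071235) chose the barcodes, and Agr2 (chr12:35992675-35992924) encodes a disulfide isomerase needed for mucin assembly. Mptx1 (chr1:174330268-174330517) and Sval1 (chr6:41951378-41951627) differed by over 2-fold between barcodes with and without Hoxb13, and Plet1 (chr9:50494275-50494524) separated colon from small intestine. Capitals mark the E-box letters CANNTG, the pattern bound by basic helix-loop-helix factors such as ATOH1, which reads alike on both strands.
Muc2: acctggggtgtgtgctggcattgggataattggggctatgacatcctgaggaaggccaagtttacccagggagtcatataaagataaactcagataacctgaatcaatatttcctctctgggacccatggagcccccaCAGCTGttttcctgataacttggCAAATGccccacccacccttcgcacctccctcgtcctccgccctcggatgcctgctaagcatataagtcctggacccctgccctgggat
Fcgbp: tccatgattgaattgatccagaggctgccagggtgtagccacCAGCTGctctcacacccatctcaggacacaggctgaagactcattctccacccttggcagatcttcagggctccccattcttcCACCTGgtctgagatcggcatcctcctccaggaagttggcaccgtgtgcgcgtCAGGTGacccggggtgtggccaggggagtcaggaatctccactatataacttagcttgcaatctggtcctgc
Agr2: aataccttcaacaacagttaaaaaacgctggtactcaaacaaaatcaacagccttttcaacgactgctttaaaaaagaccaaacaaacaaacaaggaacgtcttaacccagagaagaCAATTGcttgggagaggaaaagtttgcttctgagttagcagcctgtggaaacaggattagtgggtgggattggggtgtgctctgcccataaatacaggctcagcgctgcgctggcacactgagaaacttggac
Mptx1: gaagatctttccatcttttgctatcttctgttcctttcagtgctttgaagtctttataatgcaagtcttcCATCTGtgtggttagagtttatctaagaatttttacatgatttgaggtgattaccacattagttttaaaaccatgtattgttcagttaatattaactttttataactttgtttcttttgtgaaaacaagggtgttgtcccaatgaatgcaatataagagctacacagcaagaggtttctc
Sval1: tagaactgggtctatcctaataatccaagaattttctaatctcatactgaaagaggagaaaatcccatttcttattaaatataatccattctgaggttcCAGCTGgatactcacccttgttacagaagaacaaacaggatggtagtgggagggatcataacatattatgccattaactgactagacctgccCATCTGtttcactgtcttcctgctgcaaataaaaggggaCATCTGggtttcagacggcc
Plet1: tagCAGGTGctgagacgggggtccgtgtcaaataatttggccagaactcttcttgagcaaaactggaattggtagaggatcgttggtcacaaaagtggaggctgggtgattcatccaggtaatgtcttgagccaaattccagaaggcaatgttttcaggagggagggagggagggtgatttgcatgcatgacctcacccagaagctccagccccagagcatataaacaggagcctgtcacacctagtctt
Each of the 6 windows held at least 1 match, with 3 in Fcgbp and in Sval1, 2 in Muc2 and 1 in Agr2, Mptx1 and Plet1. Such a match is common: 66.2% of 32851 promoters of that length held one. The letters TTTATNG, known for CDX factors, were in Agr2 and in 9.81% of all promoters, and TATAAA was in Muc2, Mptx1 and Plet1 and in 12.4%. Both were read on both strands, so a match can be the reverse complement of the printed letters. These are matches of letters, not measured sites.

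Most secreted goblet products had higher levels in the low-Reg4 barcodes than in other Epcam barcodes. Of 13301 genes with at least 100 UMIs over both groups, 700 (5.26%) were at least 2-fold higher and 1983 (14.9%) at least 2-fold lower, with a median log2 ratio of -0.16. At a score limit of 5 per 10000, 821 genes were lower. Of 18 goblet products with enough UMIs, of 20 listed, 14 had a ratio above 0, 9 were at least 2-fold higher and 4 lower, with a median of 1.25. The other Epcam barcodes included 825 with high Reg4 and a goblet score of at least 10, and without those the list's median was 2.74.

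Zg16 stood at 10843 CPM (10803 to 10883) against 520 CPM (515 to 524), a log2 ratio of 4.38. This level was uneven: 157 barcodes with at least 100 Zg16 UMIs per 10000 held 96.4% of its UMIs, and the median barcode had 1.34 per 10000. Agr2, which was broad, stood at 21649.9 CPM (21593 to 21707) against 4087 CPM, a log2 ratio of 2.41, with a median of 170 per 10000. Tff3, a trefoil peptide that co-packs with mucin, was at 4284 against 933 CPM (log2 2.20). Retnlb, a bactericidal resistin-like protein, was at 6714 against 1733 CPM (log2 1.95), and Sval1 at 3088 against 704 CPM (log2 2.13). The antimicrobial ribonuclease Ang4 was at 657 against 64.7 CPM (log2 3.34), but 8 barcodes held 50% of it.

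Spink4, a protease inhibitor of goblet cells, was at 15095 CPM (15047 to 15142) against 8021 CPM, a log2 ratio of 0.91 that did not reach 2-fold. The transmembrane mucins differed in direction. Muc1 was at 36.5 against 12.2 CPM (log2 1.58) and Muc4 at 130 against 69.4 CPM (log2 0.90), while Muc3, of the absorptive brush border, was at 73.2 against 221 CPM (log2 -1.60). Dmbt1, a scavenger receptor protein of mucus, was lower, at 341 against 1189.8 CPM (log2 -1.80), as was Wfdc2 at 135 against 295 CPM (log2 -1.13). The gel-forming mucins of other organs were nearly absent, with 0.849 CPM of Muc5b and 0.309 CPM of Muc6, and were not compared.

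**Figure D2:**
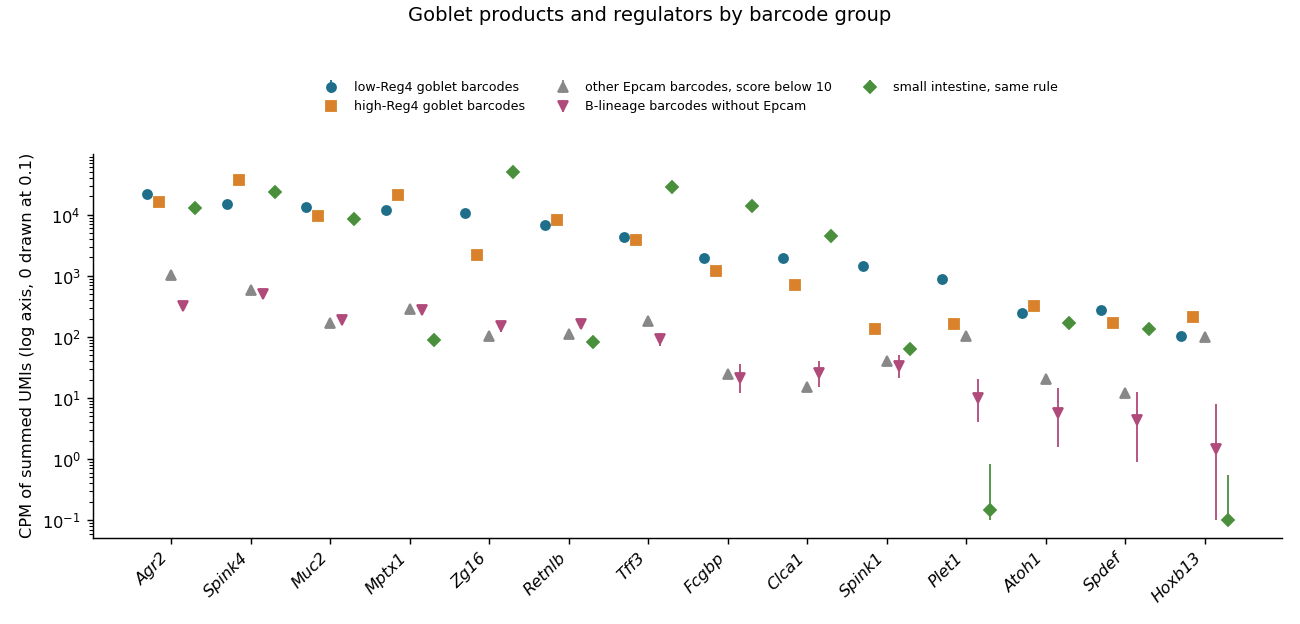
Summed CPM (log axis, 0 drawn at 0.1) of goblet products and regulators in 5 barcode groups, with exact 95% counting intervals. Low-Reg4 and high-Reg4 barcodes lie close for most genes and far above the B lineage barcodes; Spink4 is higher at high Reg4 (37697 CPM) and Zg16 at low Reg4 (10843 CPM), and Plet1 and Hoxb13 are near or at 0 in small intestine.

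Of 16 secretory transcription factors, 13 had a ratio above 0, 7 were at least 2-fold higher and 1 lower, with a median log2 ratio of 0.88. Spdef stood at 277 CPM (270 to 283) against 43.0 CPM (log2 2.69). Atoh1 stood at 250 CPM (244 to 257) against 80.5 CPM (log2 1.64), and Gfi1, which acts below ATOH1 in the goblet and Paneth branch, at 15.1 against 2.91 CPM (log2 2.37). Bhlha15, a regulator of secretory cell architecture, was at 9.84 against 2.40 CPM (log2 2.04). The membrane-bound factors Creb3l1 and Creb3l4 had log2 ratios of 1.39 and 1.87, and Foxa3 1.40. Hes1, a Notch target that represses Atoh1, was the member that was lower, at 43.4 against 102 CPM (log2 -1.24). Of 11 Notch genes, 5 were at least 2-fold lower, among them Notch1 at 6.72 against 27.6 CPM (log2 -2.04), and 1, Atoh1, was higher, while the ligands Dll1 and Dll4 were at log2 0.47 and 0.60.

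Many genes of the machinery that makes and stores mucin were higher in these barcodes than in other Epcam barcodes. Of 21 mucin glycosylation genes, 15 were at least 2-fold higher and none was 2-fold lower, with a median of 1.53. B3gnt6, the core 3 enzyme of colonic mucin, stood at 28.7 CPM (26.7 to 30.9) against 4.70 CPM (log2 2.61). Galnt5, which starts O-glycan chains, stood at 82.3 against 16.8 CPM (log2 2.29). The core 1 enzyme C1galt1 was at 390 against 106 CPM (log2 1.88), and the fucosyltransferase Fut2, which adds blood group H sugars, at 241 against 57.0 CPM (log2 2.08). B4galnt2 was the member below 0, at log2 -0.08.

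Of 28 endoplasmic reticulum folding genes, 9 were at least 2-fold higher and none was 2-fold lower, with a median of 0.92. Kdelr3, a retrieval receptor, was at 91.0 against 19.2 CPM (log2 2.25), and Ern2, the gut-specific stress sensor IRE1 beta, at 146 against 41.9 CPM (log2 1.80). The chaperone Hspa5 was at 1475 against 746 CPM (log2 0.98). Of 20 granule and exocytosis genes, 16 were at least 2-fold higher, with a median of 1.95. They included the calpain Capn9 (41.2 against 5.19 CPM, log2 2.99), Bcas1 (143 against 20.9 CPM, log2 2.77), Rep15 (369 against 59.7 CPM, log2 2.62) and the small GTPases Rab27a and Rab27b (log2 2.35 and 2.01). Vamp8 (0.39), Stx3 (0.29) and Cpeb4 (0.88) were within 2-fold, and Nlrp6, an inflammasome sensor, was lower, at 39.5 against 153 CPM (log2 -1.96). Of 11 surface goblet genes, 1 was at least 2-fold higher and 5 lower (median -0.60).

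**Figure D3:**
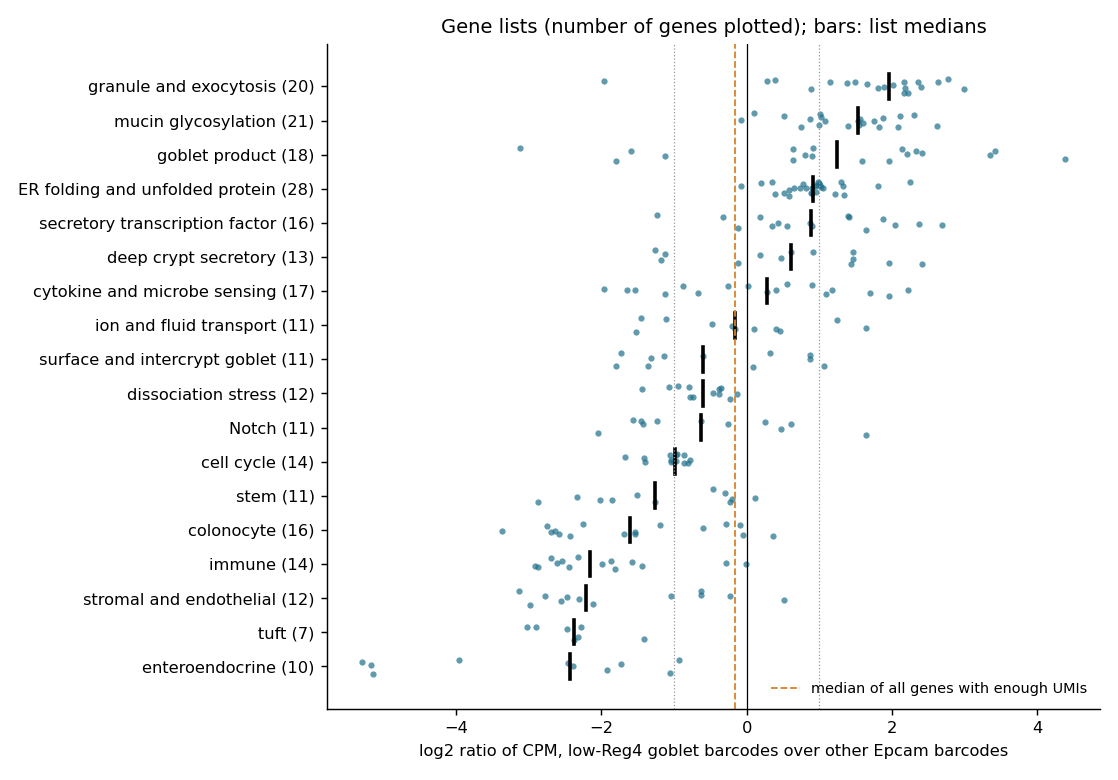
Log2 ratio of CPM, low-Reg4 goblet barcodes over other Epcam barcodes, for each gene of 18 lists (points) with the list median (bar). Dotted lines mark 2-fold and the dashed line the median of all genes with enough UMIs (-0.16). Granule (1.95) and glycosylation (1.53) genes have the highest medians, and enteroendocrine (-2.43) and tuft (-2.38) genes the lowest.

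The 15 highest ratios among genes detected in at least 10% of the barcodes included the products Zg16, Ang4 and Itln1 and 12 other genes. Atp6v0a4, a subunit of the proton pump, was at 8.45 against 0.107 CPM (log2 6.31, 5.44 to 7.33) and was detected in 11.2% of the low-Reg4 barcodes. Ido1, which degrades tryptophan, was at 121 against 2.14 CPM (log2 5.82, 5.63 to 6.03), and 16 barcodes held 50% of its UMIs. Spink1, a trypsin inhibitor, was at 1424 against 58.9 CPM (log2 4.6), with 31 barcodes holding 50%. Mmp7, a protease that activates defensins in Paneth cells, was at 78.6 against 4.67 CPM (log2 4.07), with 18 barcodes holding 50%. Several of the highest ratios thus came from small subsets.

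Broader genes were Art2b, an ADP-ribosyltransferase, at 114 against 11.8 CPM (log2 3.28) and Tpd52l1 at 46.6 against 4.37 CPM (log2 3.42), found in 45.2% and 35.5% of the low-Reg4 barcodes. The membrane fusion protein gene Fer1l6 was at 50.8 against 6.17 CPM (log2 3.04), and the sodium channel subunit Scnn1b at 11.5 against 1.28 CPM (log2 3.17). The rest were Smim38 (log2 4.29), the lectin Itln1 (44.3 against 4.15 CPM, log2 3.42), Ceacam12 (log2 3.49), Palmd (log2 3.23) and Ttyh1 (log2 3.21). Without the high-Reg4 barcodes in the comparison, Fer1l6 stood at log2 6.51, Smim38 at 6.73, Zg16 at 6.72 and Ang4 at 6.44.

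Genes of other epithelial fates were lower. The peptide hormone Pyy was at 6.41 against 226 CPM (log2 -5.14), and 9 of 10 enteroendocrine genes and 7 of 7 tuft genes were at least 2-fold lower, with medians of -2.43 and -2.38. Shares of barcodes with a UMI lay close for Pyy (12.9% and 13.3%) and for Insl5 (3.79% and 3.78%), so the ratios of these hormone sums do not describe the typical barcode. Of 16 colonocyte genes, 11 were 2-fold lower, with a median of -1.61. Among them Car1, a carbonic anhydrase, was at 209 against 1354 CPM (log2 -2.70), and Car4 at 5.06 against 51.9 CPM (log2 -3.36). Car1 in the low-Reg4 barcodes was itself concentrated, with 3 barcodes holding 50% of it. Lgr5, the stem cell receptor, was at 2.86 CPM (2.24 to 3.59) against 21.0 CPM (log2 -2.88) in a library enriched for LGR5+ cells, and 6 of 11 stem genes were 2-fold lower. All 14 cell cycle genes had ratios below 0, and 6 were 2-fold lower, Mki67 being at 135 against 233 CPM (log2 -0.78).

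The other low named genes were the esterase Ces1g (log2 -3.00), Pkib (-2.93), transferrin (Trf, -2.92), Ugt2b5 (-2.90), the gluconeogenic Fbp1 (-2.76), Glipr1 (-2.75), the stromal proteoglycan Dcn (-2.99) and the macrophage complement gene C1qa (-2.91). With barcodes of at least 2 immune or stromal UMIs left out of both groups, other than UMIs of Igha, Jchain, Iglc1 and Cd74, Dcn was at 0.10 and Glipr1 at -0.02.

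Markers of immune and stromal cells were lower in the low-Reg4 barcodes than in other Epcam barcodes but were not absent. The summed immune list was at 3819 CPM against 15101 CPM, and 12 of 14 of its members were at least 2-fold lower. Most of it was Cd74 (1663 CPM), Igha (1100.5 CPM), Jchain (506 CPM) and Iglc1 (478 CPM), and Igha was found in 86.6% of the low-Reg4 barcodes. Ptprc, the pan-leukocyte gene, was found in 56, of which 31 were shallow. The stromal and endothelial list summed to 108 against 496 CPM, with 8 of 12 members 2-fold lower. Shallow barcodes held more of these lists: the stromal sum was 52.1 CPM in deep and 2357 CPM in shallow low-Reg4 barcodes, and the immune sum 3696 and 8743 CPM. The stromal level of the shallow barcodes was thus above that of other Epcam barcodes. The part of this RNA in the ratios was not tested beyond leaving barcodes out.

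Genes that sense cytokines and microbes were mixed, with 5 of 17 at least 2-fold higher and 4 lower (median 0.28). The chemokines Ccl6 and Ccl9 stood at 1688 against 519 CPM (log2 1.70) and at 111 against 23.9 CPM (log2 2.22). The receptor subunits for interleukins 4 and 13, Il13ra1 and Il4ra, had log2 ratios of 1.09 and 1.17. Tlr2 was at 3.55 against 7.71 CPM (log2 -1.12). Of 11 ion and fluid transport genes, the bicarbonate channel Best2 (58.2 against 24.7 CPM, log2 1.24) and the potassium channel Kcnma1 (34.1 against 10.9 CPM, log2 1.64) were higher and Cftr, Slc4a4 and Kcne3 lower (log2 -1.52, -1.46 and -1.11). None of 12 dissociation stress genes was 2-fold higher, and 2 were lower (median -0.61), although their sum was 2837 CPM in the shallow barcodes beside 696 CPM in the deep and 1149 CPM in other Epcam barcodes. The 4 haemoglobin genes rested on 1 low-Reg4 barcode, which held 2614 of 2988 Hbb-bs UMIs: their log2 ratios were 0.89 to 0.99 with it and -2.51 to -1.97 without it.

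Within the low-Reg4 barcodes, genes that the choice did not use varied together or apart. Over the 763 deep barcodes, which share 1 library and differ in depth, the Spearman correlation of CPM was 0.63 for Retnlb with Plet1 and 0.65 for Plet1 with Spdef. It was 0.51 for Zg16 with Tff3 and 0.55 for Zg16 with Spink1, and -0.62 for Tff3 with Plet1. Correlations with Muc2, Fcgbp or Clca1 are not given, since their sum chose the barcodes. Among 2165 genes with at least 1500 UMIs, those most like Zg16 were Lypd8 (0.60), Phgr1 (0.58), Clec2h (0.56) and the cell cycle inhibitor Cdkn1a (0.56). Those most like Retnlb were Plet1 (0.63), Cgref1 (0.62), Art2b (0.61) and Ceacam10 (0.60).

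As a description of the choice, other genes are given by goblet score. From the deep barcodes that scored 10 to 20 (n = 63) to those of at least 200 (n = 266), Agr2 went from 10073 to 22055 CPM, Spink4 from 5199 to 22303 CPM and Zg16 from 244 to 26097 CPM. Mki67 was at 252 and 29.5 CPM at these ends, and Atoh1 at 215 and 259 CPM. The course between these ends was not steady, since Agr2 was at 26287 CPM for scores of 100 to 200 and Mki67 at 285 CPM for scores of 20 to 50.

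Barcodes with at least 100 Zg16 UMIs per 10000 were taken as a range of high Zg16, a division made with the values in view. The 123 such deep barcodes had a median score of 250 per 10000, beside 125 in the other 640. Few lay near the limit: 17 were at 50 to 100 and 23 at 100 to 200 per 10000, while 583 were below 10. Of 9818 genes with enough UMIs, 335 (3.41%) were at least 2-fold higher and 1437 (14.6%) lower, with a median of -0.38. Tff3 was at 17875 against 1828 CPM (log2 3.29) and Sval1 at log2 2.95. Fcgbp (log2 3.78) and Clca1 (log2 3.09) are given as a description, since their sum with Muc2 chose the barcodes. The goblet product list as a whole was divided, with 3 of 16 at least 2-fold higher, 4 lower and a median of 0.15, Retnlb (log2 -1.78) and Itln1 (log2 -1.73) being among the lower.

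Genes outside the mucus set were also higher at high Zg16. Spink1 was at 7599 against 304 CPM (log2 4.64), the keratin Krt20 at 304 against 14.8 CPM (log2 4.36), Cdkn1a at 477 against 36.5 CPM (log2 3.71) and Mxd1, an antagonist of MYC, at 179.6 against 11.4 CPM (log2 3.98). Other high genes were the vesicle GTPase Rab3b (log2 7.10, with 9 barcodes holding 50% of its UMIs), the acute phase gene Saa1 (log2 6.37, 7 barcodes), the proton pump Atp12a (log2 5.50, 7 barcodes) and the interferon-induced Slfn2 and Slfn4 (log2 4.70 and 3.89). Klf4, a goblet differentiation factor, was at log2 2.01. By list, 5 of 11 surface goblet genes, 7 of 20 granule genes (Capn9 at log2 2.59) and 7 of 12 dissociation stress genes (Fos at log2 1.68) were at least 2-fold higher. No surface goblet gene, 2 granule genes and 1 stress gene were at least 2-fold lower. Of 11 colonocyte genes, which include Krt20 of the surface goblet list, 5 were at least 2-fold higher and none lower, with a median of 0.87. Among the 5 were Slc26a3 (log2 1.64) and Car1 (624.6 against 112 CPM, log2 2.48). Car1 was detected in 78.9% and 77.2% of these barcodes, and 3 of all low-Reg4 barcodes held 50% of its UMIs. Of 16 secretory transcription factors, 1 was higher and 6 were lower. The part of colonocyte and stress RNA in the division was not tested.

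All 14 cell cycle genes were at least 2-fold lower at high Zg16 (median -1.94), with Mki67 at 38.4 against 154 CPM, as were 8 of 10 stem genes (median -1.56). Immune genes were also lower in 5 of 8 (median -1.27) and stromal genes in 4 of 5 (median -1.32), and their part was not tested. The immature epithelial factor Sox9 was at 34.1 against 164 CPM (log2 -2.27), Plet1 at 188 against 1013 CPM (log2 -2.43), Spdef at log2 -1.44 and Retnlb at log2 -1.78. The lowest named genes were Mmp7 (log2 -5.52), B3galt2 (-5.07), Ptpro (-4.96), Etv5 (-4.86), Mt3 (-4.66) and Wfdc18 (-3.98). Agr2 (-0.30), Spink4 (0.10) and Atoh1 (-0.37) were within 2-fold.

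A second division followed Hoxb13, a posterior Hox gene, and was also made with the values in view. Hoxb13 had a UMI in 378 of the 763 deep barcodes (49.5%) and in none of the small intestinal barcodes of the same rule. Barcodes with and without it had median depths of 31135 and 30598 UMIs and median goblet scores of 131 and 153 per 10000, and 57 of the 378 held a single UMI. Of 9818 genes, 230 (2.34%) were at least 2-fold higher with Hoxb13 and 271 (2.76%) lower. Some other Hox genes, picked after their values were seen, differed along it: Hoxd13 was at 11.1 against 0.489 CPM (log2 4.50), and Hoxb7 at 9.85 against 47.8 CPM (log2 -2.28), Hoxd4 being at log2 -2.91. Hoxa7 (0.64) and Hoxa11 (-0.75) were within 2-fold.

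Mptx1, a mucosal pentraxin, was at 23531 CPM with Hoxb13 and 304 CPM without (log2 6.27). Sval1 was at 5991 against 105.5 CPM (log2 5.83), the protease inhibitor Slpi at 831 against 6.19 CPM (log2 7.07), Atp12a at 41.4 against 0.652 CPM (log2 5.99) and Best2 at 113 against 2.12 CPM (log2 5.74). Zg16 (17882 against 3637 CPM, log2 2.30) and Tff3 (log2 1.86) were higher too, and of 16 goblet products 7 were at least 2-fold higher and 2 lower (median 0.34). The rule genes Fcgbp (log2 2.36), Clca1 (2.29) and Muc2 (-0.72) describe barcodes chosen by their sum. Slpi and Atp12a were concentrated, with 13 and 8 of the 378 barcodes holding 50% of their UMIs, beside 36 for Mptx1 and 58 for Sval1. Colonocyte genes were also higher with Hoxb13, with 6 of 11 at least 2-fold higher, 1 lower and a median of 1.08. They included Saa1 (351 against 27.9 CPM, log2 3.65) and Aqp4 (73.4 against 19.4 CPM, log2 1.92). Car1 was lower (log2 -1.70), but it was detected in 77.0% with and 77.9% without Hoxb13, and 3 of all low-Reg4 barcodes held 50% of its UMIs. Stromal genes were lower with Hoxb13 in 4 of 5 (median -2.08). The part of these lists in the division was not tested. Of the 123 barcodes of high Zg16, 85.4% had a Hoxb13 UMI, beside 42.7% of the other 640, so these divisions overlapped.

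Without Hoxb13, Mmp7 (152 against 11.2 CPM, log2 -3.76 with over without), the antimicrobial lectin Reg3g (4165 against 717 CPM, log2 -2.54), Ido1 (208 against 42.3 CPM, log2 -2.30) and the transcription factor gene Osr2 (56.2 against 5.85 CPM, log2 -3.27) were higher. So were Plet1 (1417 against 384 CPM, log2 -1.88), Retnlb (9456 against 4264 CPM, log2 -1.15) and Spdef (log2 -1.15). Agr2 (log2 -0.37), Spink4 (0.38), Atoh1 (-0.11) and Mki67 (-0.19) were within 2-fold. The haemoglobin gene Hbb-bs (log2 -4.22) rested on 1 barcode, which held 94.4% of its UMIs in the group without Hoxb13.

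The same division in other colon barcodes gave other values. In 468 high-Reg4 barcodes with Hoxb13 against 217 without, Mptx1 (log2 4.74), Sval1 (5.09) and Slpi (5.37) were again higher, but Zg16 was at -1.02 and Tff3 at -0.99. In 1056 against 1909 Epcam barcodes of low score, Hoxd13 was at log2 5.76, Mptx1 at 1.34, Sval1 at 0.97, Slpi at -1.5 and Reg3g at -1.81. The difference between these groups was not tested. The labels tie no barcode to a colon segment or an animal, so neither could be compared.

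**Figure D4:**
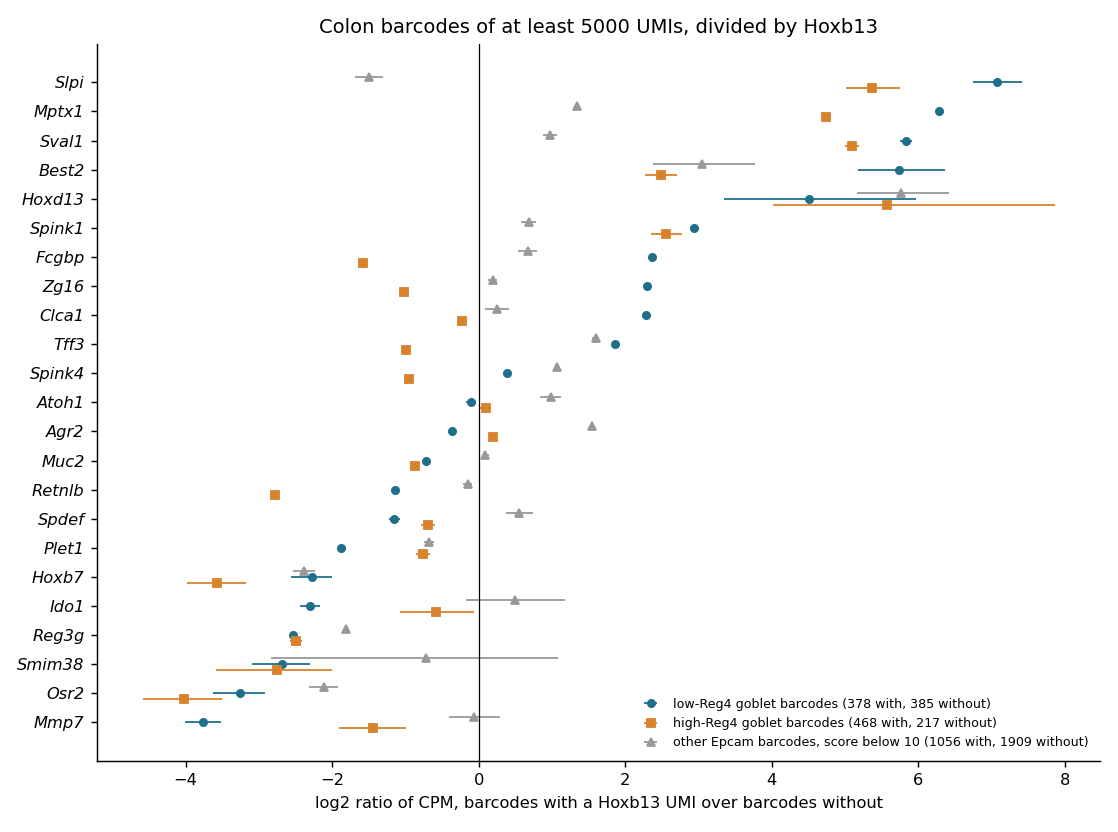
Log2 ratio of CPM, barcodes with a Hoxb13 UMI over barcodes without, in 3 colon groups of at least 5000 UMIs, with exact 95% counting intervals. Slpi, Mptx1 and Sval1 are higher with Hoxb13 in both goblet groups, while Zg16 and Tff3 are at 2.30 and 1.86 in the low-Reg4 barcodes and at -1.02 and -0.99 in the high-Reg4 barcodes. Muc2, Fcgbp and Clca1 chose the barcodes and are shown as a description.

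Against the 848 high-Reg4 goblet barcodes of the same library, the low-Reg4 barcodes differed in fewer genes. Of 10954 genes, 289 (2.64%) were at least 2-fold higher and 75 (0.685%) lower, with a median of 0.04. The mucin machinery lay close: of 21 glycosylation genes 1 was at least 2-fold higher and 1 lower (median 0.11). Among 28 folding and 20 granule genes, 1 each was higher and none lower (medians 0.33 and 0.38). Of 17 goblet products, 3 were at least 2-fold higher and 1 lower. Zg16 was at 10843 against 2179.6 CPM (log2 2.31), Itln1 at 44.3 against 15.2 CPM (log2 1.54) and Ang4 at 657 against 292 CPM (log2 1.17). Spink4 was the lower product, at 15095 against 37697 CPM (log2 -1.32). Mptx1 was at 12035 against 20736 CPM (log2 -0.78), Retnlb at 6714 against 8190.4 CPM (log2 -0.29), Agr2 at log2 0.41, Tff3 at 0.13 and Atoh1 at -0.35.

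The highest named genes against high Reg4 were Atp6v0a4 (log2 4.86), Saa1 (198 against 10.7 CPM, log2 4.21, with 9 barcodes holding 50%), Ido1 (4.16), Spink1 (1424 against 134 CPM, log2 3.41), Mmp7 (3.14), Slfn4 (2.93), Reg3g (2372 against 334 CPM, log2 2.83) and the peptide receptor Vipr2 (2.70). The lowest were Anpep (log2 -4.46), C1qa (7.84 against 116 CPM, log2 -3.89), the mast cell protease gene Cma1 (-3.51), Lix1 (-3.29), the lectin Chodl (-2.86), the hormone Sct (89.2 against 528 CPM, log2 -2.56) and the claudin Cldn14 (-2.24). Dll1 was at 8.76 against 20.4 CPM (log2 -1.22). Of 11 surface goblet genes, 4 were at least 2-fold higher, with Mxd1 at 38.1 against 10.9 CPM (log2 1.81) and Krt20, which the colonocyte list also holds, at 61.6 against 9.53 CPM (log2 2.69). Of 15 colonocyte genes, 5 were higher and none lower (median 0.58), and of 12 dissociation stress genes, 6 were higher. Immune list RNA was higher as well, at 3819 against 1587 CPM, and the part of these lists in the ratios was not tested.

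The same rule applied to the small intestinal library found 321 barcodes of 2756 kept, with a median of 20764 UMIs. Tissue and library cannot be told apart here. In that library 5497 of 8842 barcodes exceeded the mitochondrial limit, beside 2060 of 8646 in colon, and the libraries shared 25 barcodes, 3 of them low-Reg4 colon barcodes. Of 10413 genes, 1673 (16.1%) were at least 2-fold higher in colon and 378 (3.63%) lower, with a median of 0.42.

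Plet1, a surface protein with a lipid anchor, was at 878 CPM in colon against 1 UMI in small intestine (0.147 CPM), a log2 ratio of 10.96 with that count set to 3 UMIs and a counting interval of 10.06 to 17.85. Car1 (209 CPM), Hoxb13 (103 CPM) and Ccn3 (80.8 CPM) had no UMI in small intestine. With that count set to 3 UMIs, their log2 ratios were 8.89, 7.87 and 7.52, and the lower limits of their counting intervals were 8.59, 7.57 and 7.22. The sialyltransferase St6galnac6 was at 364 against 0.883 CPM (log2 8.69), Car2 at 264 against 1.03 CPM (log2 8.001) and Wfdc18 at 229 against 1.18 CPM (log2 7.60). Saa1 was at 198 CPM against 2 UMIs. Mptx1 (12035 against 88.9 CPM, log2 7.08), Sval1 (3088 against 21.6 CPM, log2 7.16) and Retnlb (6714 against 83.3 CPM, log2 6.33) were also higher in colon.

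Of 21 mucin glycosylation genes, 7 were at least 2-fold higher in colon and none lower, but the list's median of 0.40 was close to the 0.42 of all genes. The 7 included B3galt5 at 233 against 4.56 CPM (log2 5.68), Fut2 at 241 against 6.92 CPM (log2 5.12) and Gcnt1 at 12.4 against 0.589 CPM (log2 4.39). B3gnt6 was at 28.7 CPM against 2 UMIs. Of 20 granule genes, 0 were at least 2-fold higher and 2 lower (median -0.32), beside 16.1% and 3.63% of all genes. Cell cycle genes were at least 2-fold higher in colon for 13 of 14 (median 1.31). Agr2 was at 21649.9 against 12717 CPM (log2 0.77).

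Other mucus genes were lower in the colon barcodes. Zg16 was at 10843 against 51119 CPM (log2 -2.24), Tff3 at 4284 against 28421 CPM (log2 -2.73) and Itln1 at 44.3 against 9342 CPM (log2 -7.72). The named genes at the low end were all alpha-defensins, antimicrobial peptides of Paneth cells: Defa17, Defa21, Defa22, Defa24, Defa26, Defa29, Defa30 and Defa36. Defa24 was at 76390.2 CPM in the small intestinal goblet barcodes and at 63333 CPM in the other 1602 Epcam barcodes of that library, in 100% and 99.9% of them, against 3 UMIs in the colon barcodes. Defa30 was at 18842 and 17114 CPM in the same groups, in 98.4% and 98.5% of their barcodes, so these values did not set goblet barcodes apart from other epithelial barcodes of that library.

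**Figure D5:**
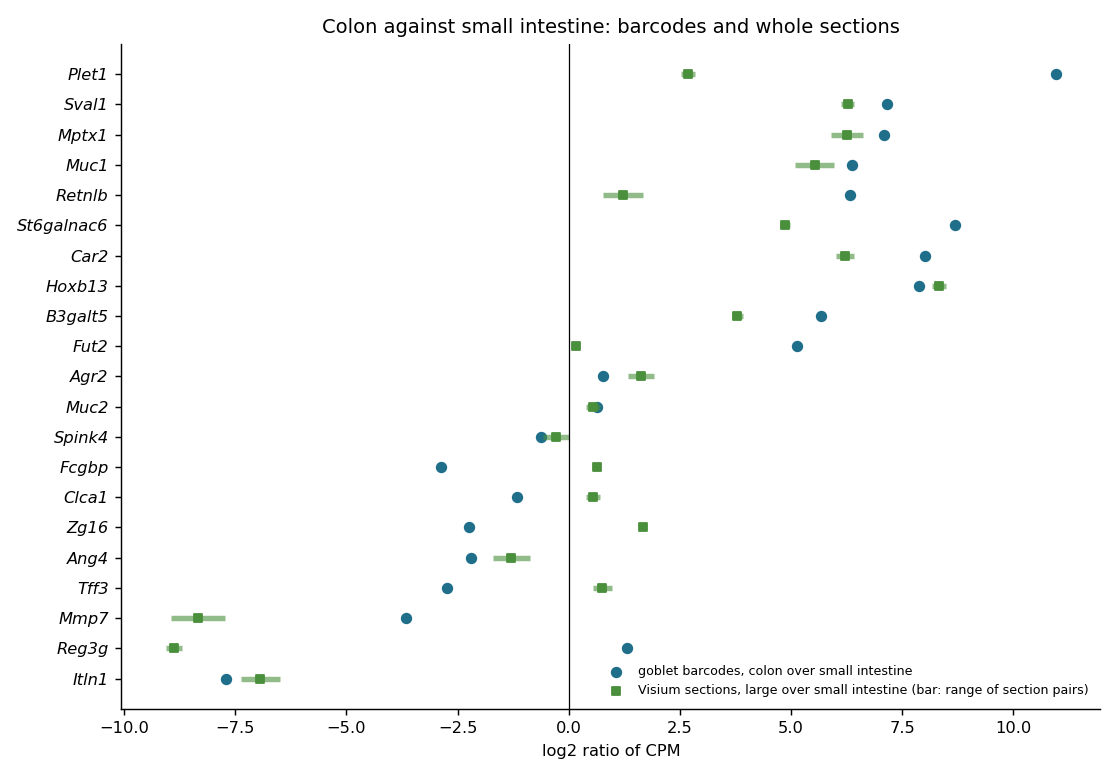
Log2 ratio of CPM, colon over small intestine, for goblet barcodes of the same rule (circles) and for whole Visium sections (squares; bars span the section pairs). Plet1, Sval1, Mptx1 and Car2 are higher in colon in both; Zg16 and Tff3 are lower in colon among barcodes and higher in colon among sections. Muc2, Fcgbp and Clca1 chose the barcodes and are shown as a description. Counts under 3 UMIs were set to 3, as were the small intestinal counts behind the circles for Plet1 and Hoxb13.

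Whole Visium sections, which the choice of barcodes did not use, gave the tissue difference for all cells together. A spot is a small region with several cells, so fewer goblet cells and less RNA per cell cannot be told apart. The 2 large intestinal sections had 2094 and 2179 kept spots with median depths of 19329 and 19822 UMIs, and the small intestinal ones medians of 10208.5 and 9039 UMIs. Plet1 was at 215 and 214 CPM in large and 37.1 and 30.3 CPM in small intestine, and Hoxb13 at 356 and 368 against 1.23 and 1.03 CPM. Mptx1 was at 5537 and 5134 against 86.4 and 56.2 CPM, and Sval1 at 899 and 923 against 12.9 and 10.8 CPM. For these genes the sections and the barcodes had the same direction.

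Zg16 had the opposite direction. It was at 7277 and 7858 CPM in the large and at 2360.4 and 2372 CPM in the small intestinal sections, a log2 ratio of 1.68, beside -2.24 among barcodes. Tff3 was at 0.76 in sections and -2.73 among barcodes. Retnlb was at log2 1.221 in sections and 6.33 among barcodes, and B3gnt6 at -1.07 and 6.02. Reg3g was at 28.4 and 33.7 against 15166 and 14047 CPM in sections (log2 -8.88) and at log2 1.32 among barcodes, and Mmp7, at 78.6 CPM in the low-Reg4 barcodes, was at 0.461 and 0.502 CPM in the large intestinal sections. Hoxb13 had a UMI in 94.4% and 95.4% of large intestinal spots, but in 37.3% of the low-Reg4 barcodes, at other depths.

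Within the large intestinal sections, spots were ranked by Muc2, Fcgbp and Clca1 after thinning to 2000 UMIs, and the top 25% were set against the bottom 25% (522 and 577 spots in section 1, 570 and 591 in section 2). Among 9249 and 9312 genes, 6.5% and 7.42% were at least 2-fold higher in goblet-rich spots and 13.0% and 13.9% lower. Of the 15 named higher genes, 9 had fewer than 20 UMIs over both sets in each section. The other 6 are described by their values, since a gene could pass this minimum through the goblet-rich spots alone. Ang4 was at log2 5.99 and 6.25, Itln1 at 4.88 and 5.04, Ido1 at 3.56 and 2.98, Fer1l6 at 3.28 and 2.49, Zg16 at 2.61 and 2.91, and Spink1 at 2.34 and 2.80.

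Several other genes had the same direction in these spots as in the barcodes. Retnlb (log2 5.64 and 5.62), Plet1 (3.62 and 4.14), Tff3 (1.61 and 1.70), Spdef (1.47 and 1.62), Bcas1 (1.32 and 1.95) and Tpsg1 (2.21 and 2.05) were higher in goblet-rich spots, while Agr2 (0.75 and 0.33) and Atoh1 (0.91 and 0.03) were within 2-fold. Others differed from the barcodes: Best2 was at -1.23 and -0.40 in spots and 1.24 among barcodes, and Creb3l1 at 0.06 and -0.41 in spots and 1.39 among barcodes. Dcn was lower (-2.54 and -2.13). The colonocyte genes Car4 (2.70 and 2.94), Slc26a3 (2.87 and 3.18) and Krt20 (2.99 and 3.28) were higher in goblet-rich spots, opposite to Car4 (-3.36) and Slc26a3 (-2.25) in the barcodes, and their part in the goblet values was not tested. Reg4 was at 83.3 against 400 CPM in section 1 and at 71.1 against 396 CPM in section 2 (log2 -2.26 and -2.48). Atp6v0a4 had no UMI in either set of spots, and Mmp7 had 1 UMI in the goblet-rich spots of each section, so neither could be read there.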

How the data were processed

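The sorted tissue libraries were deposited as UMI counts per gene and barcode, made by the authors with Cell Ranger 6.0.1, and the Visium sections as UMI counts per gene and spot, made with Space Ranger 1.2.1, per the file headers. The genome build was mm10 per the submitters' processing notes. Counts were summed over barcodes of a group and divided by all UMIs (CPM); ratios used genes with at least 100 UMIs over both groups (20 in Visium), with counts under 3 set to 3, and "higher" or "lower" means at least 2-fold where counted. Intervals are exact (Poisson or Clopper-Pearson, 95%). The low-Reg4 barcodes and all gene lists were chosen with earlier results of these data known. Named genes were the 15 highest and 12 lowest against other Epcam barcodes, and the 8 highest and lowest against high Reg4 and small intestine, detected in at least 10% of the higher group, leaving out rule, mitochondrial, ribosomal, sex-linked, immunoglobulin, reporter and unnamed genes. Of the genes this rule names, 1 is not reported here. For the divisions by Hoxb13 and Zg16, genes were picked after their values were seen. Doublets were kept, and left out as an alternative with Scrublet (scanpy 1.11.5) at 0.8% per 1000 barcodes. Of 32285 gene identifiers, 32158 matched the RefSeq and gene name tables. Python 3.11.15, numpy 2.4.6, scipy 1.17.1, pandas 2.3.3 and matplotlib 3.10.9 were used, and the counting steps were tested on simulated data. Alternatives were other limits on score, Reg4, genes, mitochondrial share and depth, other scalings, gene filters and spot settings. With 1 library per tissue no test was possible.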

Additional observations from a re-analysis of the deposited data

Results flagged for a closer look

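A reporter transcript outside the main comparison was counted in the low-Reg4 goblet barcodes. The deposited feature GFP-PLUS had 60 UMIs in 38 of them (3.35%), or 2.32 CPM (1.77 to 2.98), beside 0.116 CPM for a count of 3 UMIs. Other Epcam barcodes had 1910 UMIs (18.5 CPM, in 20.9%), those of them with an Lgr5 UMI had 47.9 CPM, and the 114 B lineage barcodes had 1 UMI, or 1.40 CPM (0.0355 to 7.81), an interval that holds the level of the low-Reg4 barcodes. The feature GFP-MINUS had 1 UMI in the low-Reg4 barcodes.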

How the results depend on the processing

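No paired analysis was possible because each tissue had 1 sorted library, and the values of the Visium sections, technical duplicates of a tissue, come from no test. The medians of the goblet product (1.25) and colonocyte lists (-1.61) kept their sign under all alternatives run; the number of barcodes (1136) and the counts of genes at least 2-fold higher (700) and lower (1983) than in other Epcam barcodes moved as follows. At a score limit of 5, 821 genes were lower and the product median was 1.16; at 20 it was 1.35. With Reg4 below 5 the product median was 1.18; below 20 the medians were 1.36 and -1.77. With at most 10% mitochondrial UMIs they were 1.49 and -0.99, and without doublets, which took 8.10% of these barcodes and 4.58% of other Epcam barcodes, 1.35 and -2.25. Leaving out every barcode with 2 or more immune or stromal UMIs left 40 barcodes and 244 genes, of which 10 were higher and 8 lower, so that lower genes no longer outnumbered higher ones, with medians of 0.77 and -1.30; sparing Igha, Jchain, Iglc1 and Cd74, chosen after seeing the data, it left 744 barcodes and medians of 1.56 and -2.09. Scaling without mitochondrial and ribosomal genes gave a product median of 1.15, the mean of barcode CPM 1.11 and -0.996, centring on the median gene 1.40 and -1.46, and comparison barcodes without high Reg4 2.74 and -1.89. A gene filter of 20 UMIs gave 2997 lower genes and a product median of 1.58, and one of 300 UMIs 1296 and 0.91. For the 27 named genes, 432 of 433 values kept their direction and 429 were at least 2-fold; the exception in direction was Dcn at 0.10 (sparing those 4 genes), and Glipr1 (-0.02, same setting), Dcn (-0.11) and C1qa (-0.72, both at a score limit of 5) were within 2-fold. The Visium median (2.56) over named genes that passed by more than 3 UMIs in 1 spot set, which favours high ratios, was 2.47 to 2.65 with 1 section left out, 1.82 with the top and bottom 50% of spots and, chosen after seeing the data, 3.18 over named genes with at least 20 UMIs. Alternatives for the other comparisons, chosen after seeing the data, kept their counts within 1.5 times: 231 to 243 higher and 266 to 356 lower with Hoxb13, 325 to 356 and 1287 to 2002 at high Zg16, 222 to 229 and 80 to 86 against high Reg4, and 1117 to 1869 and 324 to 407 against small intestine. Median depth of 1374 UMIs in the 373 shallow barcodes limits what can be read from each.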
